A study of Mus musculus with 2 samples.

Results

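Scavenger and endocytic receptors take up modified lipoproteins, glycoproteins, hemoglobin complexes and debris from outside the cell. The 10 genes described here encode 8 receptors of the cell surface (Cd163, Mrc1, Stab1, Colec12, Msr1, Cd36, Lrp1 and Scarb1), the lysosomal relative Scarb2 and Dab2, an adaptor that joins cargo receptors to the clathrin coat. They were chosen by name, as 10 of the 16819 genes in the deposited matrix, with earlier results of these data known. The rule that names them uses none of their measured values, and no class of cells was cut on them. Macrophages were classed by Fcrls and Ccr2, however, which the study named as the top genes differing between its CD163+ and CD163− clusters of these same cells. These classes are thus not independent of receptors that mark those clusters. Of the 10 genes, 5 (Cd163, Mrc1, Stab1, Colec12 and Dab2) are also the genes of a receptor-mediated endocytosis term that the study drew from a comparison of these same cells. Neither their direction nor the number of them called between macrophage subsets is therefore independent evidence.

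Immune cells (CD45+) were sorted from dorsal root ganglia (DRGs), which house the cell bodies of sensory neurons, of naive WT BALB/cAnNRj mice. About 40 cervical, thoracic and lumbar ganglia were pooled, age is not given in the labels, and all cells shared a single lane of the 10x 3′ v3 assay with hashtag antibodies that mark the animal of origin. The deposited matrix holds raw UMI counts of 2668 cells from the 3 male mice (481, 772 and 1415 cells in mouse 1, 2 and 3), and each hashtag was taken as 1 mouse. Values are given for mouse 1, 2 and 3 in this order, and the mouse is the replicate throughout. There was no treated group, so that the comparisons are between kinds of cells of the same animals.

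Macrophages recognize much of their cargo through a few receptor families. CD163 binds hemoglobin bound to haptoglobin, the mannose receptor MRC1 (CD206) and collectin-12 (Colec12) recognize sugars through lectin domains, and stabilin-1 (Stab1) and the class A receptor Msr1 take up modified proteins and lipoproteins. CD36 and SCARB1 are class B receptors for fatty acids, oxidized lipids and high-density lipoprotein, whereas LRP1 is a large receptor that clears protease-inhibitor complexes and apolipoprotein E particles. In many tissues high levels of CD163, MRC1 and stabilin-1 are a hallmark of resident macrophages near vessels. Fcrls is a marker of resident macrophages of nervous tissue, and Ccr2 encodes a chemokine receptor that monocytes need to leave the bone marrow.

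The sequences before the transcription start are shown for 4 of the 5 genes that were called between macrophages with Fcrls only and with Ccr2 only. RefSeq promoters (GRCm38.p6) matched 7 of the 10 members. Bases within an annotated exon were trimmed. Capitals mark TGCTGA, the core of a half-site of MAF factors, or its complement TCAGCA, and GAGGAA, the core of sites of the myeloid factor PU.1, or its complement TTCCTC. Both strands were searched over the 250 bases before each start, and no match overlapped another in the windows shown.
Cd163, chr6:124304401-124304650, plus strand: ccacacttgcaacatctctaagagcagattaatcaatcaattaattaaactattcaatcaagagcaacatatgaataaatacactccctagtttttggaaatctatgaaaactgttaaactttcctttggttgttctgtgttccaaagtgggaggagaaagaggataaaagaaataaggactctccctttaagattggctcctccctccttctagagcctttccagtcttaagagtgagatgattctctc
Mrc1, chr2:14229164-14229391, plus strand: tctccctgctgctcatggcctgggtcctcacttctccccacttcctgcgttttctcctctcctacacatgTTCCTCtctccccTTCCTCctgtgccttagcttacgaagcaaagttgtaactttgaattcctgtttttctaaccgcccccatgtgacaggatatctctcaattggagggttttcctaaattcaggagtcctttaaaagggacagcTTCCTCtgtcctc
Stab1, chr14:31168642-31168891, minus strand: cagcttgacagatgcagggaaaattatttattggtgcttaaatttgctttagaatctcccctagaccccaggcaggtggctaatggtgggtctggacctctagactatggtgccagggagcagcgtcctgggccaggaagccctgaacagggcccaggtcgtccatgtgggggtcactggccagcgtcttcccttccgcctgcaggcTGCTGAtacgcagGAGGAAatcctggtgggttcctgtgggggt
Dab2, chr15:6299539-6299787, plus strand: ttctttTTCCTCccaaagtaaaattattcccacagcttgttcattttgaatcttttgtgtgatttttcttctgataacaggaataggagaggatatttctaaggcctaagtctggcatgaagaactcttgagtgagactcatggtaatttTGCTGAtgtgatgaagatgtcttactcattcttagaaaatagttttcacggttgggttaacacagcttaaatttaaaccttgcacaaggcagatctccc
The Stab1 window held TGCTGA 43 bases and GAGGAA 30 bases before the start, and that of Dab2 held both motifs too, 100 and 244 bases before it. Mrc1 had 3 matches of GAGGAA alone, at 180, 167 and 35 bases, while the Cd163 window held neither set of letters. Over 8 promoters of the members, including those of Cd36, Lrp1, Scarb2 and a further start of Dab2, 4 held TGCTGA and 4 held GAGGAA. Matches were counted before exon bases were trimmed. The Scarb2 window, which held TGCTGA, lay wholly within annotated exons, and both starts of Dab2 count toward GAGGAA. Of all 32851 RefSeq promoters of this length, 16.1% held TGCTGA and 23.3% held GAGGAA. A match gives letters only and does not show that a factor binds there.

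Cells were classed on markers that are not members of the list. Macrophages were cells with at least 0.5% of their UMIs in the complement genes C1qa, C1qb and C1qc, and there were 1484 of them (183, 519 and 782), or 55.6% of the cells, with only 11 cells between 0.4% and 0.6%. Marker lists of 10 macrophage genes summed to 56905 to 58435 CPM (UMIs of the genes relative to all UMIs of the class) in macrophages of each mouse against at most 5184 in any other class, with Mertk at 0 UMIs in monocytes, DCs, B cells and T and NK cells. Markers of monocytes summed to 291 to 310 CPM in macrophages and to 6203 to 7492 CPM in monocytes. The macrophage list includes C1qa, C1qb and C1qc, and the monocyte list is the one that gated monocytes. These gaps between classes thus follow in part from the gates. The other classes were 111 monocytes, 77 DCs, 572 neutrophils, 161 B cells and 126 T and NK cells, and 137 cells were left without a class. Hashtag doublets were removed by the authors, doublets within a mouse cannot be seen by hashtag, and Scrublet marked only 12 of 2668 cells (0.450%), too few to say that it worked. Among macrophages, 20 also passed the gate of another class.

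By UMIs, 678 macrophages had Fcrls only (77, 264 and 337), 156 had Ccr2 only (24, 48 and 84), 583 had both (69, 184 and 330, here double-positive) and 67 had neither. Median UMIs per cell were 8522, 8000, 9080.0 and 7058 in these classes. A cell in which no UMI of a gene was found may still express it at this depth.

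Macrophages with Fcrls only held more of 5 receptors than those with Ccr2 only: Stab1, Cd163, Colec12, Mrc1 and Dab2, by 2.09- to 3.38-fold. The other 4 tested members (Msr1, Cd36, Lrp1 and Scarb2) did not pass the test in either direction. The question was whether the receptor repertoire differs between macrophages marked as resident and those marked by the monocyte chemokine receptor. UMIs were summed per mouse and class, and CPM below are scaled by TMM factors. With edgeR's quasi-likelihood test and Benjamini-Hochberg adjustment over 6443 genes, 5 of 9 tested members were higher in Fcrls-only macrophages and 0 were lower, where 3.04% of all tested genes were higher and 4.33% lower. The median log2 fold change was 1.07 over the 9 members and 0.02 over all genes.

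Stab1, a receptor of sinusoidal endothelium and of resident macrophages that carries ligands to lysosomes, stood at 532, 404 and 479 CPM in Fcrls-only macrophages (472 ± 64.3, SD, n = 3) and at 180.4, 77.9 and 163 CPM in Ccr2-only macrophages (140.3 ± 54.7). Each Fcrls-only value was above each Ccr2-only value, and mouse 2 was the lowest in both classes (log2 fold change 1.76, SE 0.21, adjusted p = 1.50e-05, edgeR's quasi-likelihood test, Benjamini-Hochberg adjustment). Cd163 (chr6:124304656-124330527, plus strand in GRCm38), the hemoglobin-haptoglobin receptor, measured 299, 222 and 244 CPM with Fcrls only and 101, 89.9 and 77.1 CPM with Ccr2 only. Again the classes did not overlap, with mouse 1 highest in each (log2 fold change 1.55, SE 0.21, adjusted p = 8.33e-05, same test). Colec12, a membrane collectin that binds sugars and modified lipoproteins, was found at 286, 267 and 238 CPM against 50.7, 108 and 109 CPM. In Ccr2-only macrophages mouse 1 stood below the other two, at 9 UMIs, and no values overlapped (log2 fold change 1.43, SE 0.20, adjusted p = 9.20e-05, edgeR).

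Mrc1, the mannose receptor, stood at 1467, 1579 and 1394 CPM in Fcrls-only macrophages and at 507, 629 and 537 CPM in Ccr2-only macrophages. Mouse 2 was highest in both, and the lowest Fcrls-only value was far above the highest Ccr2-only value (log2 fold change 1.40, SE 0.15, adjusted p = 5.63e-06 by edgeR). Dab2, the clathrin adaptor of cargo receptors, had 914, 1012 and 893 CPM with Fcrls only against 457, 489 and 409 CPM with Ccr2 only, without overlap (log2 fold change 1.07, SE 0.17, adjusted p = 3.23e-04, edgeR). These 5 calls held under each of the 12 alternatives run (other scaling, test, filter, block, cutoffs and each mouse left out), with a highest adjusted p of 0.0194, that of Dab2. In 3 female mice, whose cells are in a larger deposited matrix and not among the 2668, 5 of 9 tested members were called higher and 0 lower in edgeR (the same 5 genes), against 2.69% and 3.02% of 4602 genes.

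**Figure D1:**
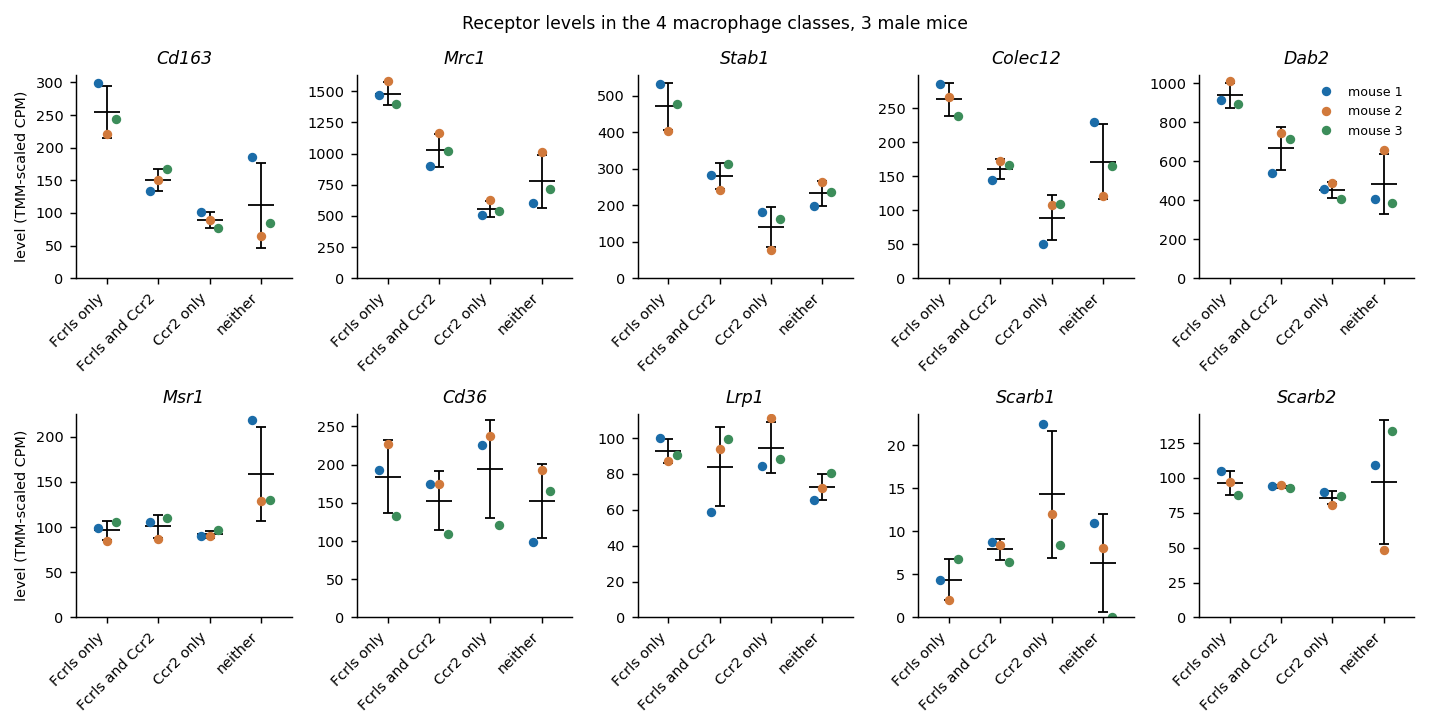
Levels of the 10 genes (TMM-scaled CPM, linear axes from 0) in macrophages with Fcrls only, with Fcrls and Ccr2, with Ccr2 only and with neither, with 1 point per mouse and the mean ± SD of 3 mice in black. Mrc1 falls from a mean of 1480 CPM with Fcrls only through 1027 CPM with both to 558 CPM with Ccr2 only, whereas Scarb2 stays between 86.0 and 96.4 CPM in these 3 classes.

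The other members were found in both classes at levels that overlapped. Msr1, the class A scavenger receptor, had 98.9, 84.3 and 106 CPM in Fcrls-only and 90.2, 89.9 and 96.7 CPM in Ccr2-only macrophages, which leaves a log2 difference of 0.05 with a 95% interval of -0.35 to 0.45. Cd36, the fatty acid and oxidized lipid receptor, varied more between mice than between classes, at 193, 226 and 133 against 226, 237 and 120.5 CPM (interval -0.55 to 0.55 on the log2 scale). Mouse 3 was lowest for Cd36 in both. Lrp1 measured 100.3, 87.4 and 90.6 against 84.6, 111 and 88.3 CPM (interval -0.45 to 0.37), and Scarb2, a lysosomal membrane protein that delivers glucocerebrosidase, 105, 97.1 and 87.5 against 90.2, 80.9 and 86.9 CPM (interval -0.26 to 0.56). Differences within these intervals are not excluded, and the intervals are not limits of detection. Scarb1, the receptor of high-density lipoprotein, had only 31 UMIs in Fcrls-only and 14 in Ccr2-only macrophages and was not tested by the main rule on low counts. Without that filter its log2 fold change was -1.22 (SE 0.57, edgeR adjusted p = 0.351).

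Markers of cell types were measured in the same sums. The 10 macrophage markers summed to 65374, 61993 and 62507 CPM in Fcrls-only and to 44186, 45148 and 49927 CPM in Ccr2-only macrophages. The 8 monocyte markers summed to 48.2, 28.5 and 50.1 CPM against 672, 816 and 637 CPM, but Ccr2, which cut the classes, is one of them, and the other 7 summed to 48.2, 28.5 and 50.1 CPM against 68.8, 197 and 144 CPM. In monocytes these 7 stood at 5105 to 6308 CPM. The macrophage list moved in the direction of the 5 called receptors and the monocyte list in the opposite one, each without overlap of the mice. The part of both lists in the receptor differences was not tested. Neutrophil markers reached 945, 1078 and 3526 CPM in Fcrls-only and 846, 1004 and 976 CPM in Ccr2-only macrophages, and fibroblast markers 58.5, 163 and 143 against 31.7, 56.3 and 54.8 CPM. The part of neutrophil and fibroblast RNA in the receptor differences was not tested beyond leaving out the 20 macrophages that passed another gate, after which all 5 receptors stayed called. A list of 6 endothelial markers also stood higher in Fcrls-only macrophages (133, 197 and 118 against 5.29, 11.3 and 15.1 CPM), but this was largely Egfl7 (1029 UMIs in 491 of 1484 macrophages), while Cdh5, Cldn5, Flt1 and Plvap together had 11 UMIs in the 1484 macrophages. Egfl7 had 848 UMIs in the 678 Fcrls-only and 12 in the 156 Ccr2-only macrophages, and Pecam1 had 20 UMIs in all 1484. Stab1 is shared with endothelium, and the part of endothelial RNA in its difference was not tested.

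Double-positive macrophages lay between the other classes for each of these 5 receptors. Their mean levels were 1027 ± 133 CPM for Mrc1, 667 ± 111 for Dab2, 280.1 ± 36.2 for Stab1, 161 ± 14.7 for Colec12 and 151 ± 16.8 for Cd163 (SD, n = 3). Against Fcrls-only macrophages, edgeR's quasi-likelihood test (Benjamini-Hochberg adjustment) called 3 of 9 members lower and 0 higher, against 0.450% of all genes in each direction. They were Cd163 (log2 fold change -0.73, SE 0.17, adjusted p = 0.0442), Stab1 (-0.74, SE 0.18, 0.0466) and Colec12 (-0.69, SE 0.16, 0.0459). Mrc1 (-0.53, adjusted p = 0.101) and Dab2 (-0.49, 0.187) did not pass in the same edgeR fit. With the mouse as replicate block, which removes what the sums of 1 animal share, all 5 passed (adjusted p from 5.09e-04 to 0.0123, edgeR). The block also raised the calls over all 6443 genes from 58 to 246. With any one of mouse 1, 2 or 3 left out 0 of the 5 passed in edgeR, at 15, 30 and 47 calls over all genes. At an unadjusted p under 0.05 in these fits there were 4, 5 and 5 of the 5. Over all genes 449 of 7699, 414 of 6521 and 519 of 5716 were under it, in either direction. By DESeq2 4 of the 5 passed with all mice, at 93 calls over all genes.

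Against Ccr2-only macrophages, double-positive macrophages were called higher in 2 of 9 members, and lower in none, where 0.264% of all genes were higher and 0.202% lower. Mrc1 rose from 507, 629 and 537 CPM to 897, 1162 and 1022 CPM (log2 fold change 0.88, SE 0.15, adjusted p = 0.00682, quasi-likelihood test of edgeR), without overlap of the mice. Stab1 went from 180.4, 77.9 and 163 to 284, 242 and 314 CPM, with the lowest double-positive value above the highest Ccr2-only value (log2 fold change 1.01, SE 0.21, adjusted p = 0.0325, edgeR). Cd163, Colec12 and Dab2 differed by 0.83, 0.74 and 0.58 on the log2 scale and did not pass (edgeR adjusted p = 0.127, 0.147 and 0.188). With the mouse as replicate block all 5 receptors passed, at a highest adjusted p of 0.0368 (edgeR), while calls over all genes rose from 30 to 120. Without mouse 1 or without mouse 2 the call of Mrc1 alone was left, and without mouse 3 there was none. The 3 comparisons share their sums, so their directions are not separate observations. Msr1, Cd36, Lrp1 and Scarb2 passed in neither comparison.

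**Figure D2:**
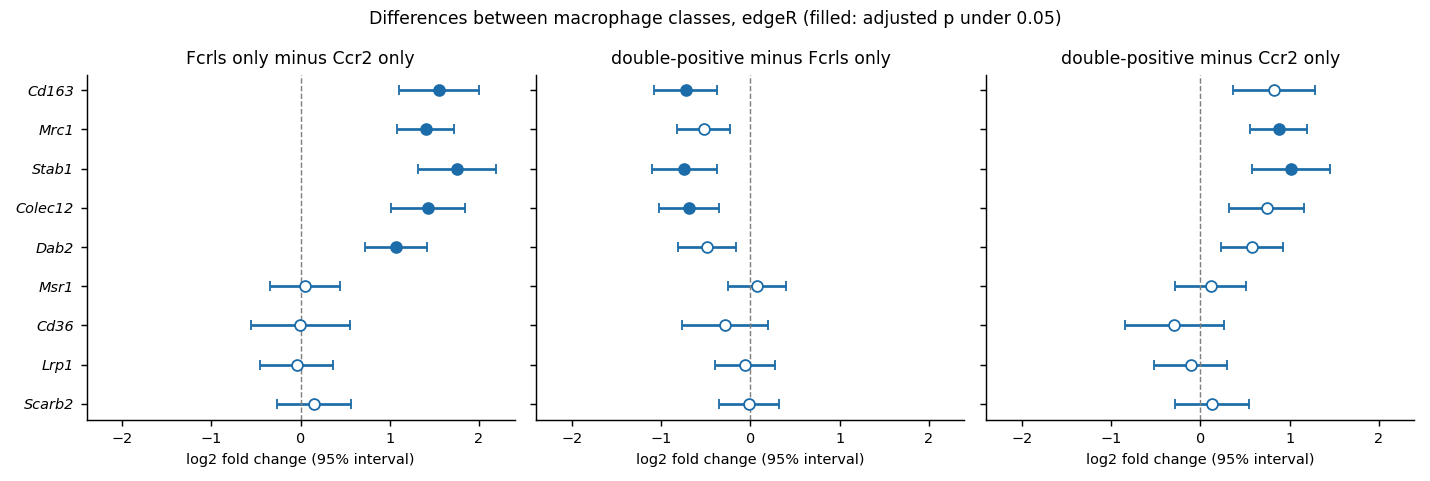
Log2 fold changes of the 9 tested receptors (points, with 95% intervals from edgeR's fit) in Fcrls-only minus Ccr2-only, double-positive minus Fcrls-only and double-positive minus Ccr2-only macrophages, with filled points at an adjusted p under 0.05. In the left panel Dab2 to Stab1 lie between 1.07 and 1.76, and the other 4 receptors between -0.04 and 0.15.

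The called receptors were then described by the number of Fcrls or Ccr2 UMIs after the cells were brought to equal depth, which restates the class difference in finer steps. Each macrophage with at least 4000 UMIs was thinned to 4000, which left 1402 cells (170, 485 and 747) and set aside 82 shallower ones. Over cells with 0, 1, 2, 3 to 4 and at least 5 Fcrls UMIs (330, 255, 164, 294 and 359 cells), mean Mrc1 UMIs per cell were 2.67, 3.83, 4.73, 5.37 and 6.59, with SDs over mice of 0.508 in the first and 0.624 in the last bin. Those of Dab2 were 1.98, 2.54, 3.02, 3.64 and 3.98, with SDs from 0.304 to 0.814. In mouse 1 Dab2 went from 1.67 to 1.60 over the first of these steps. Both means thus increased at each step, and the end bins of Mrc1 differed by several times their SD. Over cells with 0, 1, 2 and at least 3 Ccr2 UMIs (834, 234, 141 and 193 cells), Mrc1 had 5.43, 4.04, 3.75 and 3.25 and Dab2 3.45, 2.71, 2.62 and 2.31 UMIs per cell. Stab1 had 0.800, 0.983, 1.44, 1.48 and 2.24 UMIs per cell over the Fcrls bins. Over those of Ccr2 it had 1.76, 1.01, 1.17 and 0.791, which did not fall at each step. Means of Cd163 and Colec12 were close to 1 UMI or below it in each bin. From the lowest to the highest Fcrls bin Cd163 went from 0.421 ± 0.138 to 1.09 ± 0.243 and Colec12 from 0.466 ± 0.0958 to 1.15 ± 0.129 (SD over mice). Their single steps were not read. Cd36, Msr1, Lrp1 and the Scarb genes had means below 1 UMI in each bin, and no steps were read from them either.

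**Figure D3:**
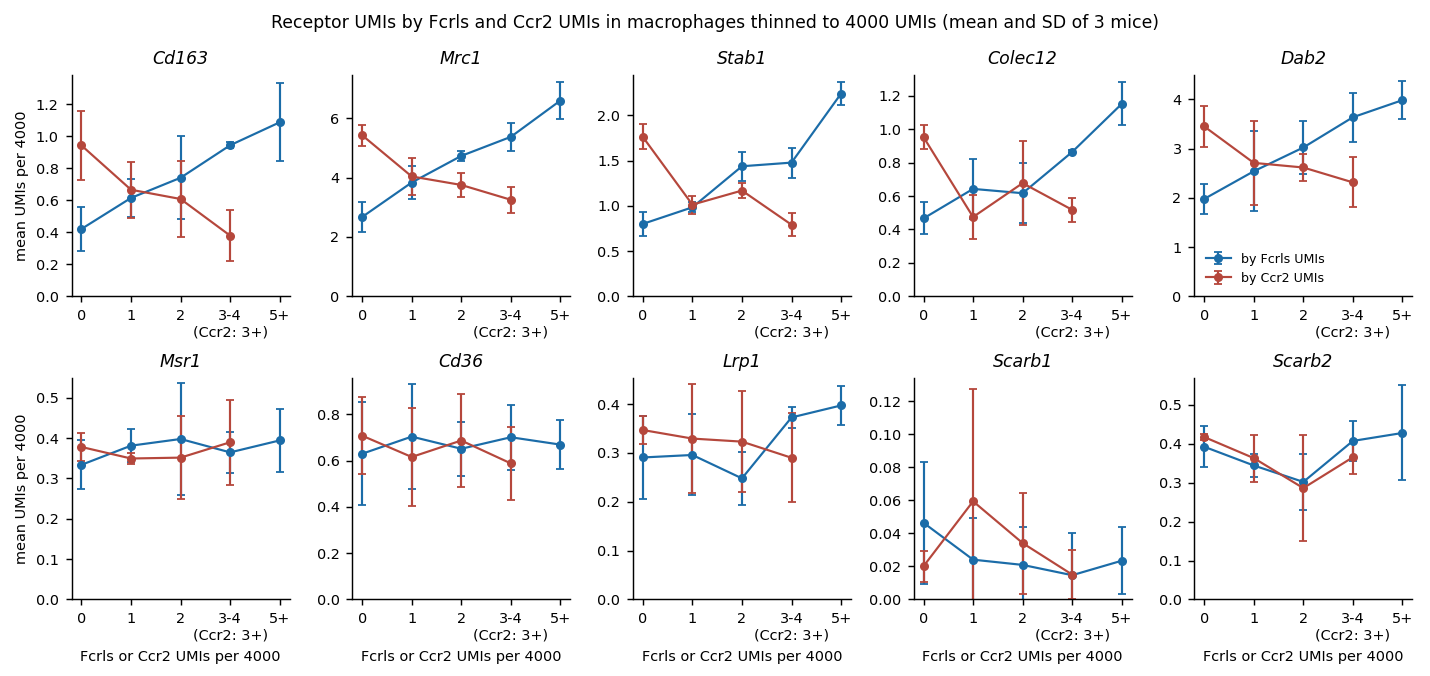
Mean UMIs of each receptor per macrophage thinned to 4000 UMIs, by the Fcrls UMIs (blue) or Ccr2 UMIs (red) of the same cell, with error bars for the SD of 3 mice. Mrc1 goes from 2.67 to 6.59 UMIs over the Fcrls bins and from 5.43 to 3.25 over the Ccr2 bins, while Cd36 stays between 0.629 and 0.703 UMIs over the Fcrls bins.

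The number of receptors found per cell is given as a description, since the 5 counted were those called between the classes of these same cells. At 4000 UMIs, Fcrls-only macrophages carried UMIs of 3.90 ± 0.129 of the 5 receptors Cd163, Mrc1, Stab1, Colec12 and Dab2 (4.04, 3.79 and 3.88, SD, n = 3), double-positive ones 3.22 ± 0.0855 and Ccr2-only ones 2.18 ± 0.197 (2.15, 2.00 and 2.39). The classes did not overlap between mice. All 5 were found together in 165 of 638 Fcrls-only macrophages (25.9%), in 78 of 574 double-positive ones (13.6%) and in 2 of 141 Ccr2-only ones (1.42%). Of Msr1, Cd36, Lrp1 and Scarb2, in contrast, the classes carried 1.31 ± 0.0585, 1.29 ± 0.0537 and 1.24 ± 0.104 on average, which overlapped. In all 1402 cells, 249 had a UMI of each of the 5 and 11 of none.

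Co-variation was measured over the same thinned cells as Spearman's correlation within each mouse, averaged over the 3 mice. These values describe cells that share a library, a fixed depth and few UMIs per gene, and they carry no test. Mrc1 and Dab2 were the most alike pair of the list, at 0.335 (0.334, 0.312 and 0.360). Mrc1 and Stab1 had 0.317 (0.352, 0.303 and 0.295) and Cd163 and Mrc1 0.292 (0.352, 0.238 and 0.285). Among the 5 receptors all 10 pairs were above 0 in each mouse, with a median of 0.210 and a range of 0.150 to 0.335. These 5 were grouped because they were called between classes of these same cells. Positive values over the pooled classes thus follow in part from that choice. For scale, 2102275 pairs of the 2051 genes found in at least 20% of these cells had a median of 0.00172, and 99% of them lay below 0.101. These pairs were not matched to the 5 by the share of cells with a UMI.

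The other receptors, which were not called between the classes, had lower correlations. They were also found in fewer of the thinned cells: Msr1 in 30.4%, Cd36 in 39.4%, Lrp1 in 28.4% and Scarb2 in 31.8%. Shares of the 5 ran from 43.0% (Cd163) to 94.6% (Mrc1). Sparse counts lower such correlations, and the part of detection in the gap between the groups was not tested. Among Msr1, Cd36, Lrp1 and Scarb2 the median was -0.00809 (-0.0442 to 0.0277), and 1 of 6 pairs was above 0 in each mouse. Between these 4 and the 5, the median was 0.0294 (-0.0160 to 0.117), with 8 of 20 pairs above 0 in each mouse. Cd36 stood nearest to the 5, at 0.117 with Colec12 and 0.113 with Cd163. The lowest of the 45 pairs was Dab2 with Scarb1 at -0.0528, where Scarb1 had a UMI in only 2.71% of cells. Over all 45 pairs the mean was 0.0646 ± 0.00504 (SD over mice). At 2000 UMIs it was 0.0412.

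Part of the likeness was held within Fcrls-only and double-positive cells as well. Within the 638 Fcrls-only cells the 5 receptors had a median correlation of 0.149 (0.0453 to 0.196, with 8 of 10 pairs above 0 in each mouse), and within the 574 double-positive cells of 0.142 (0.0182 to 0.285, 8 of 10 pairs). Within the 141 Ccr2-only cells it was 0.160 (-0.0731 to 0.250), and 4 of 10 pairs were above 0 in each mouse. Each of these medians is below the 0.210 of all macrophages. Between the 5 and the other 4 receptors, medians in Fcrls-only, double-positive and Ccr2-only cells were 0.0256, -0.00580 and 0.0406. In Ccr2-only cells such pairs ran from -0.192 to 0.305, with 5 of 20 above 0 in each mouse. The highest of them exceeded every pair among the 5, so the likeness was less clear in that class. By detection over all 1402 thinned macrophages, with the classes pooled, Stab1 was found in 75.4% ± 1.06 of cells with Cd163. In cells without Cd163 it was found in 58.3% ± 3.34 (SD, n = 3 mice). Such shares thus include the differences between the classes. Colec12 was found in 55.1% ± 1.69 against 43.7% ± 4.38. For Msr1 the shares were 30.0% ± 2.98 and 30.5% ± 5.57, so that cells with and without Cd163 overlapped there.

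**Figure D4:**
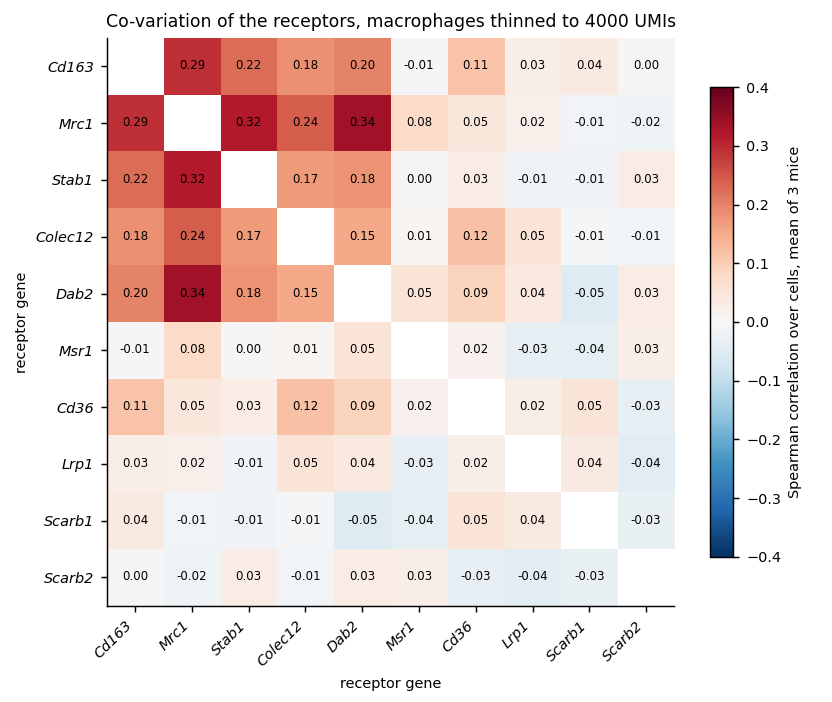
Spearman correlations between the 10 genes over 1402 macrophages thinned to 4000 UMIs, as the mean of 3 mice, with both axes listing the genes and color and printed values giving the correlation. The 5 genes from Cd163 to Dab2 form a block of 0.150 to 0.335, and no pair with Msr1, Cd36, Lrp1, Scarb1 or Scarb2 is above 0.117.

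For each member found in at least 20% of the thinned macrophages, the 3 genes with the most similar pattern over cells were taken from 2050 others. Mrc1 was most like Fcrls (0.467), the chemokine Pf4 (0.449) and the selenium carrier Selenop (0.413). Stab1 was most like Fcrls (0.371), the lysosomal protease Ctsb (0.319) and Mrc1 (0.317). Dab2 went with Mrc1 (0.335), Fcrls (0.326) and Pf4 (0.304), and Cd163 with Mrc1 (0.292), Selenop (0.284) and Pf4 (0.261). Colec12 had Fcrls (0.255), Mrc1 (0.241) and the carbonyl reductase Cbr2 (0.238). Fcrls was among the first 4 of 2050 genes for each of the 5 (rank 4 for Cd163), which restates that these 5 were called between classes cut on Fcrls and Ccr2. Ccr2, for which the same holds, had -0.192, -0.280, -0.261, -0.170 and -0.194 with Cd163, Mrc1, Stab1, Colec12 and Dab2.

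For the remaining members the highest of the 2050 values was 0.112 for Msr1 (with Pnp, then Hprt and Cfl1), 0.151 for Cd36 (with the chemokine Ccl24, then Map3k8 and Wwp1), 0.132 for Lrp1 (with Dusp3, then Pdcd5 and Prdx1) and 0.111 for Scarb2 (with Unc93b1, a chaperone of endosomal Toll-like receptors, then Aprt and Eif1a). The value of Cd36 with Ccl24 was 0.125, 0.134 and 0.195 in the 3 mice. These top genes were taken as the highest of 2050 values in these same mice. That a value is above 0 in each mouse thus follows largely from this choice. In counts this sparse no pattern was read from any of these values. Fcrls had 0.003, 0.013, 0.067 and 0.039 with Msr1, Cd36, Lrp1 and Scarb2.

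The list was then extended to related genes, which were taken by name, with earlier results of these data known. Of 44 other scavenger and endocytic receptors, 37 were in the matrix and 14 passed the filter on low counts. Of these 14, edgeR called 4 higher in Fcrls-only macrophages, where 3.04% of all tested genes were higher. Calls in the lower direction are not reported here for this list. The median log2 fold change was 0.29, against 0.02 over all genes. Clec10a, a galactose-type lectin, had 80.4, 73.0 and 68.7 CPM (before TMM scaling) with Fcrls only and 5.29, 36.6 and 16.4 CPM with Ccr2 only (log2 fold change 1.72, edgeR adjusted p = 0.0298). The Ccr2-only sum of mouse 1 held 189085 UMIs in all, so its value of Clec10a rests on very few UMIs. The study lists Clec10a among the epineural macrophage genes of a small separate cluster. The Fc receptor Fcgrt, which returns IgG and albumin from endosomes, had 678, 465 and 601 against 296, 338 and 341 CPM (log2 fold change 0.71, edgeR adjusted p = 0.0140). The lectin Cd302 (log2 fold change 0.60) and the Wnt co-receptor Lrp6 (1.25) were higher too. Lrp6 stood at 10.6 CPM in the Ccr2-only sum of mouse 1, again very few UMIs.

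Of 46 genes of the clathrin coat, its adaptors and the early endosome, the machinery that Dab2 serves, 37 were tested. In Fcrls-only macrophages 8 were higher and 0 lower by edgeR's test, where 3.04% of all genes were higher and 7.37% were called in either direction, and the median log2 fold change was 0.17. The retromer-associated sorting nexin Snx2 had 276, 256 and 279 against 95.2, 121 and 121 CPM (log2 fold change 1.12, edgeR adjusted p = 6.85e-05). The clathrin heavy chain Cltc had 456, 465 and 526 against 280.3, 177 and 255 CPM (log2 fold change 0.93, edgeR adjusted p = 0.00124). The other named genes of the group were Eps15 (1.02) and Hip1 (0.98), which bind the coat, the endosomal tether Eea1 (0.71) and the AP-2 subunit Ap2a2 (0.68, each as log2 fold change). Hip1 had very few UMIs in the Ccr2-only sum of mouse 1 (10.6 CPM). The other 29 tested genes of the group did not pass.

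Compared with other immune cells of the ganglion, macrophages held most of the list at higher levels, but not all of it. The type comparisons share the macrophage sums, and in sums of cells fewer cells that express a gene and less RNA per cell cannot be told apart. Against monocytes, 7 of 10 members were higher and 1 lower by edgeR's quasi-likelihood test (Benjamini-Hochberg adjustment), against 19.8% and 17.5% of 6124 genes, with a median log2 fold change of 2.85. Mrc1 stood at 1190.1, 1483 and 1256 CPM in macrophages and 9.56, 13.7 and 22.6 CPM in monocytes (log2 fold change 6.24, SE 0.32, edgeR adjusted p = 2.70e-14). Dab2 had 752, 960.1 and 838 against 2.39, 9.15 and 5.94 CPM (7.27 on the log2 scale) and Stab1 411, 349 and 411 against 0, 4.57 and 5.94 CPM (6.56). In monocytes Cd163 had 1 UMI in all, and the pooled ratio of its CPM was 243 (95% counting interval 43.5 to 9593). Cd36 had 203, 232 and 135 against 14.3, 4.57 and 10.7 CPM (4.11, edgeR adjusted p = 2.56e-09).

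Monocytes did hold some members. Colec12 stood at 66.9, 101 and 67.8 CPM in monocytes against 219, 239 and 214 CPM in macrophages, without overlap (log2 fold change 1.60, SE 0.21, edgeR adjusted p = 7.60e-07), and a UMI of it was found in 51.4% of monocytes and 1.24% of B cells. Msr1 was not called, at 103, 73.2 and 60.6 against 119, 97.4 and 119 CPM, which overlapped (edgeR adjusted p = 0.0835, or 0.0463 with the mouse as replicate block). Lrp1 was called at a log2 fold change of 0.55 (edgeR adjusted p = 0.0440), with 87.8, 102 and 104 against 55.0, 86.9 and 67.8 CPM, but the adjusted p was 0.142, 0.0656 and 0.257 without mouse 1, 2 and 3, and the ratio of pooled CPM without TMM factors was 1.19. Scarb2 measured 93.2, 146 and 92.7 CPM in monocytes against 109, 104 and 101 CPM in macrophages, a log2 difference of 0.00 with an interval of -0.39 to 0.40. Its ratio of pooled CPM without TMM factors, macrophages over monocytes, was 0.800, and that of Msr1 was 1.19. Differences this small may thus depend on the scaling.

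Scarb1 was the only member called lower in macrophages than in monocytes. It measured 50.2, 50.3 and 46.4 CPM in monocytes and 9.45, 6.13 and 7.32 CPM in macrophages (log2 fold change -2.70, SE 0.31, adjusted p = 7.14e-08, quasi-likelihood test of edgeR). The monocyte values rest on 21, 11 and 39 UMIs, so their closeness is not read as a small spread between mice. There was no overlap of the 2 types. DCs had 5.68, 12.2 and 10.6, neutrophils 6.77, 9.55 and 6.60, B cells 6.84, 0 and 8.92 and T and NK cells 7.04, 0 and 6.09 CPM, and the difference of macrophages from each of these 4 types did not pass the test. A UMI of Scarb1 was found in 49.5% of monocytes, 5.66% of macrophages and 3.73% of B cells, at medians of 10686, 8622 and 3386 UMIs. The pooled level of B cells (8.32 CPM, 6 UMIs) was not below that of macrophages (6.64 CPM). Thinned to 2000 UMIs, the shares of monocytes and macrophages were 9.26% and 1.44%. The call held under each alternative run, with a highest adjusted p of 4.47e-04.

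**Figure D5:**
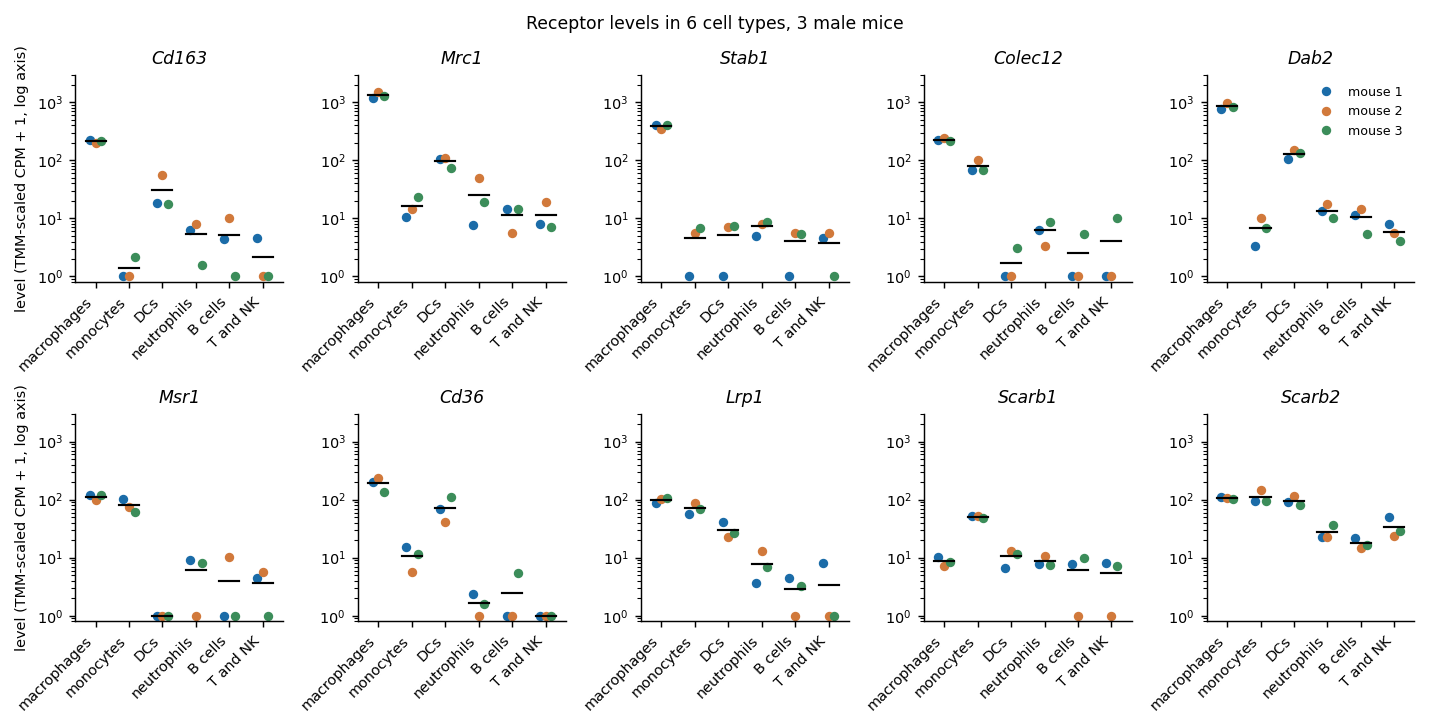
Levels of the 10 genes (TMM-scaled CPM + 1, log axes) in 6 cell types, with 1 point per mouse and a black line at the mean of 3 mice. Scarb1 stands at 50.2, 50.3 and 46.4 CPM in monocytes and at most at 12.2 CPM elsewhere, and Dab2 at 752, 960.1 and 838 CPM in macrophages and at 102, 153 and 134 CPM in DCs.

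DCs kept a part of the macrophage set. Against DCs, macrophages were higher in 8 of 10 members and lower in none by edgeR's quasi-likelihood test, against 17.7% of genes higher and 15.4% lower. Dab2 stood at 102, 153 and 134 CPM in DCs (2.68 on the log2 scale, edgeR adjusted p = 4.05e-12), Mrc1 at 102, 109.8 and 72.2 CPM (3.83) and Cd163 at 17.0, 54.9 and 17.0 CPM (2.82, edgeR adjusted p = 7.13e-08). Cd36 had 68.2, 39.7 and 108 CPM in DCs, its smallest difference from macrophages among the 5 types (1.31, edgeR adjusted p = 4.56e-04), without overlap. In contrast, Colec12 had 1 UMI in the 77 DCs (pooled ratio 207, counting interval 37.2 to 8187) and Msr1 had 0, which puts macrophages at least 35.3-fold higher. Of DCs, 0 of 77 had a UMI of Msr1, which allows a share of up to 3.90% of cells with a UMI at this depth and sets no limit on cells that express it. Thus Dab2, Mrc1 and Cd163, which were low in monocytes, were found in DCs, and Colec12 and Msr1, which monocytes held, had 1 UMI between them in DCs. DCs and monocytes were not tested against each other. The 10 macrophage markers summed to 563, 603 and 1136 CPM in DCs and to 2596, 5184 and 2993 CPM in monocytes, and what share of the receptor UMIs came with them was not tested. Scarb2 did not differ beyond its interval of -0.28 to 0.58 on the log2 scale, and neither did Scarb1 (-1.51 to 0.57). Intervals of pooled counts cover counting error only.

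A UMI of Cd163 was found in 19.5% of DCs, 60.9% of macrophages and 1.86% of B cells, and for Dab2 these shares were 35.1%, 95% and 4.97%. At 2000 UMIs per cell the shares of Dab2 were 15.6%, 73.0% and 4.0%. The 3 types had medians of 13814, 8622 and 3386 UMIs.

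Neutrophils, B cells and T and NK cells were below macrophages for the whole list except Scarb1, which was low in macrophages too. In each of these 3 comparisons 9 of 10 members were higher in macrophages by edgeR's test, where 35.6%, 29.8% and 25.3% of genes were higher and 33.2%, 27.6% and 24.7% lower. The exception was Scarb1 in each (edgeR adjusted p = 0.946, 0.778 and 0.500). Scarb2 had 21.7, 21.5 and 36.0 CPM in neutrophils, 20.5, 13.6 and 15.6 CPM in B cells and 49.2, 23.0 and 27.4 CPM in T and NK cells, the smallest called differences of the list (log2 fold change 1.85, 2.64 and 1.63). Cd36 had 0 UMIs in T and NK cells, which puts macrophages at least 35.4-fold higher. In B cells Mrc1 was found in 6.83% and Stab1 in 1.86% of cells, against 98.3% and 80.9% of macrophages. By mean level Scarb2 ran from monocytes (111 CPM), macrophages (105) and DCs (94.8) to T and NK cells (33.2), neutrophils (26.4) and B cells (16.6), and the first 3 overlapped between mice.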

How the data were processed

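Per the labels and the study's methods, CD45+ DAPI− cells were run in 1 lane, reads were processed with Cell Ranger (3.1.0, mm10), cells were kept at over 200 and under 5000 genes and under 5% mitochondrial reads, and hashtags were demultiplexed with HTODemux. The authors deposited UMI counts that were not normalized, of 2668 cells and 16819 genes, and in a larger matrix of 4395 barcodes and 31053 genes with hashtag counts. In Seurat 5.3.0 these steps returned the same 2668 male cells, 1073 further female cells and 0 shared barcodes. The male mice had 4239463, 5656097 and 13508078 UMIs, with a median of 8283.5 per cell.

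Gates used markers other than the members, with cutoffs set after their distributions had been seen. The 10 members, the related gene lists and the tests were chosen with earlier results of these data known. All 10 members are described. Also named are the 3 most correlated genes of each member found in at least 20% of thinned macrophages, and up to 6 called genes with the largest fold of each related list. UMIs were summed per mouse and class and tested with edgeR 4.0.16 (TMM, filterByExpr, glmQLFTest, Benjamini-Hochberg over all tested genes, adjusted p under 0.05) in R 4.3.3. The sums of 3 mice have a biological coefficient of variation of 0.132 in the macrophage classes, and p-values measure the spread between mice in 1 lane. The sums of 1 mouse come from the same animal and so are paired, with correlations of their deviations of 0.0195, 0.0661 and 0.187. On simulated data for Fcrls-only against Ccr2-only macrophages (6206 genes), edgeR recovered 45% of genes at a log2 fold of 1 and 92% at 2, with 10 false calls. Thinning was at random to 4000 or 2000 UMIs (numpy 2.4.6), and intervals are at 95%. Floors are 3 counts over the pooled class. Alternatives were size factors of DESeq2, its Wald test (1.42.0), no filter, the mouse as replicate block, each mouse left out, a C1q cutoff of 1%, removal of cells marked by Scrublet (scanpy 1.11.5), classes after thinning or at 2 UMIs and, added after seeing the data, removal of macrophages passing another gate. Gene coordinates are those of GENCODE for GRCm38. Promoters are RefSeq's (GRCm38.p6). A result of a related gene is not reported here.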

Additional observations from a re-analysis of the deposited data

Results flagged for a closer look

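The larger deposited matrix holds cells of 3 female mice that are not in the matrix of 2668 cells, and a signal of the receptors in them calls for a look because the comparisons in male mice do not use these cells. There were 610 female macrophages (211, 177 and 222), of which 297 had Fcrls only, 55 Ccr2 only, 231 both and 27 neither. By edgeR's quasi-likelihood test (Benjamini-Hochberg adjustment), the same 5 receptors were higher in Fcrls-only than in Ccr2-only macrophages, 5 of 9 tested, where 2.69% of 4602 genes were higher. Stab1 had a log2 fold change of 1.85 (SE 0.22, adjusted p = 4.02e-06), with 400, 379 and 367 against 75.3, 135 and 112 CPM in the 3 mice, and the classes did not overlap. Colec12 had 1.91 (adjusted p = 1.13e-04), from 263, 265 and 257 against 30.1, 67.5 and 112 CPM, again without overlap, at few UMIs in Ccr2-only cells. Mrc1 had 1.29 (adjusted p = 9.56e-06), from 1531, 1535 and 1524 against 467, 868 and 570.1 CPM. Dab2 had 1.18 (adjusted p = 1.63e-05) and Cd163 1.35 (adjusted p = 0.00329), both without overlap of the mice. The call of Cd163 was lost without female mouse 1 (adjusted p = 0.0817) and with positive cells taken at 2 UMIs (0.0551).

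Msr1, the class A receptor, had 128, 99.9 and 83.9 against 90.4, 28.9 and 16.1 CPM in female mice and did not pass by edgeR's test (log2 fold change 1.14, adjusted p = 0.132), except without the filter on low counts (0.0244) and without female mouse 1 (0.0393). The difference of the effect between the sexes, as an interaction in edgeR, was called for 0 of 6822 genes and for none of the receptors, with 291 genes at an unadjusted p under 0.05 and 0 calls by DESeq2. The smallest unadjusted p among the receptors was that of Msr1 (0.0162). All mice shared 1 lane.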

How the results depend on the processing

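The 5 calls of Fcrls-only against Ccr2-only macrophages and the counts of 8, 8, 9, 9 and 9 called members of the type comparisons stayed within 1.5 times under every alternative run for them, and the 5 of Fcrls-only against Ccr2-only macrophages stayed at 5. The double-positive comparisons did not. Against Fcrls-only macrophages, where 3 members were called, the count was 5 with no filter on low counts and 5 with the replicate block. It was 1 at a C1q cutoff of 1%, 1 without cells marked by Scrublet, 1 without macrophages that pass another gate (an alternative chosen after seeing the data), 0 with classes from cells thinned to 2000 UMIs, 0 with positive cells taken at 2 UMIs, and 0 to 0 with 1 mouse left out. Against Ccr2-only macrophages, where 2 were called, it was 4 by DESeq2, 5 with no filter, 5 with the replicate block, 0 at a C1q cutoff of 1%, 0 with thinned classes, and 0 to 1 with 1 mouse left out. The cause of these moves was not tested. The mean correlation of the 45 pairs, 0.0646, was 0.0412 at 2000 UMIs and 0.0412 within Fcrls-only macrophages.

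The replicate block, which pairs the sums of a mouse, changed 1 other call, that of Msr1 against monocytes (adjusted p = 0.0463 by edgeR). Of 986 values of single receptors under another setting, 933 kept their side of the threshold, 36 lost a call, 17 gained one and 0 called values changed sign, while 43 uncalled values did. Over all genes, Fcrls-only against Ccr2-only macrophages gave 475 calls, 194 to 279 with 1 mouse left out and 272 with thinned classes. Double-positive against Fcrls-only macrophages gave 58, but 246 with the block, 182 with no filter, 93 by DESeq2, 20 with thinned classes and 15 to 47 with 1 mouse left out, and against Ccr2-only macrophages 30, but 120, 136 and 4 with the block, no filter and thinned classes and 14 to 18 with 1 mouse left out. With no filter, macrophages against neutrophils gave 6837 in place of 4214. Without mouse 3, monocytes gave 1455 in place of 2285 and DCs 1327 in place of 2025. Female mice gave 263, and 96 to 169 with 1 left out. The female and male difference gave 0, but 16 with no filter, 2 with the block and 2 without replicate 2. With no filter the median of all genes moved by over 0.1 on the log2 scale in several comparisons, so folds there are relative to that shift. The 156 Ccr2-only macrophages (24 in mouse 1) and the 11 DCs of mouse 1 limit the depth of the sums, and genes near 0 UMIs, such as Scarb1 in macrophages, cannot be resolved among the classes.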

Other observations

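Macrophages with neither Fcrls nor Ccr2 UMIs were few, with 13, 23 and 31 cells in the 3 mice, and entered no comparison. Mrc1 stood at 601, 1012 and 719 CPM in them, Dab2 at 405, 659 and 384 CPM and Stab1 at 197, 265 and 237 CPM. Cd163 ranged widely, at 186, 64.3 and 84.9 CPM, with mouse 1 far above the others. Msr1 had 219, 129 and 129.5 CPM, from only 20, 16 and 29 UMIs. Each value was above those of the 3 other classes, which ran up to 110.3 CPM. Female mice did not show this order. Their macrophages with neither gene had 0, 63.4 and 93.3 CPM of Msr1 (0, 3 and 3 UMIs), against 128, 99.9 and 83.9 CPM with Fcrls only. The level of Msr1 in these cells was not tested in either sex. Thinned to 4000 UMIs, 49 of these cells carried 2.82 ± 0.164 of the 5 receptors Cd163, Mrc1, Stab1, Colec12 and Dab2 (SD, n = 3).

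The related gene lists were also counted between macrophages and other types. Against monocytes, edgeR called 6 of 14 other scavenger and endocytic receptors higher and 3 lower, and 16 of 34 genes of the clathrin coat, adaptors and early endosome higher and 1 lower, with medians of 0.36 and 0.48 on the log2 scale against 0.03 over all genes. Of all genes, 19.8% were higher and 17.5% lower against monocytes. Against DCs the counts were 5 higher and 3 lower of 14, and 18 higher and 2 lower of 34, with medians of 0.29 and 0.74 against 0.06 over all genes, of which 17.7% were higher and 15.4% lower.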
